A study of Mus musculus with 8 samples.

Results

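The 9 genes of the chromodomain helicase DNA-binding (CHD) family, Chd1 to Chd9, were described in AML12 cells, a mouse hepatocyte line derived from a mouse that carried a transforming growth factor alpha transgene. The members were taken by gene symbol, and all 9 of 9 were found among the 55401 genes of each table. The family was selected on the exposure contrast itself, in which Chd9 had one of the smallest p-values and was lower after exposure, so the exposure differences of the members are given as a description, with no test of them. Poly(A) RNA was sequenced from 4 culture dishes exposed for 1 h to Opti-ELF-WMF, an extremely low-frequency weak magnetic field of 100 mG delivered as pulses of 4 ms with frequencies stepping from 1 to 8 Hz, and from 4 control dishes. The paper states in general that control and stimulated cells were prepared together from 1 batch of cells. Whether all 8 dishes came from the same batch is not given. The control dishes stood in another incubator of the same model with the stimulator off, so that exposure and incubator cannot be told apart. The dishes are replicate cultures of 1 cell line, and the p-values below measure only the spread between these dishes.

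CHD proteins are enzymes of the SNF2 type that use ATP to slide, space or evict nucleosomes, and they read histone tails through a pair of chromodomains. Subfamily I (Chd1, Chd2) works with transcribing RNA polymerase, subfamily II (Chd3, Chd4, Chd5) forms the motor of the NuRD complex, which couples remodelling to histone deacetylation, and subfamily III (Chd6 to Chd9) carries BRK domains and acts at promoters and enhancers. Chd9 was described as a coactivator of the nuclear receptor PPARa, the regulator of fatty acid oxidation in liver.

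Levels are given in TPM, a relative abundance of transcripts that corrects for transcript length and scales every dish to the same total, so genes can be compared within a dish. The read depth behind the values is unknown. The dishes had between 19386 and 20114 genes above 0 TPM. Hepatocyte genes were present, with the transcription factor Hnf4a at a mean of 192.7 TPM and albumin (Alb) at 52.4 TPM, whereas Apoa2 was at or near 0. Among markers of other liver cells, the macrophage genes Adgre1 and Clec4f and the stellate cell gene Lrat were listed at 0 in every dish. The macrophage gene Cd68 was at a mean of 1.6 TPM. The bile duct keratins Krt19 and Krt7 were at 1161 and 68.97 TPM, but the bile duct gene Epcam was at 0.0475 TPM. The remaining markers had means under 1 TPM. Mitochondrially encoded genes took 8.94% ± 0.336 of TPM in control dishes and 7.04% ± 0.765 in exposed dishes (SD, n = 4 each), which moves the level of every other gene on this scale. With limma, no gene of 12122 tested had an adjusted p under 0.05, and 1894 (15.6%) had an unadjusted p under 0.05, 1451 of them higher (12%) and 443 lower (3.65%) after exposure. This balance turned with the scaling, to 588 higher and 801 lower with upper-quartile scaling, 673 and 755 with median of ratios, and 400 and 940 without mitochondrial genes and their nuclear copies.

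The family spanned a wide range of levels, led by Chd9 and closed by Chd5. The order Chd9, Chd3, Chd4, Chd8, Chd1, Chd2, Chd6, Chd7, Chd5 held in 8 of 8 dishes. Each of the 8 pairs of neighbours in this order differed (exact two-sided sign-flip test over 8 dishes, p = 0.00781, adjusted p = 0.00781 over 8 pairs, the smallest value that 8 dishes allow). The order was taken from the same dishes, so these p-values restate that all 8 dishes keep it. The narrowest step was from Chd8 to Chd1, a 1.17-fold ratio of mean TPM, and the widest was from Chd7 to Chd5, a 19.8-fold ratio. Only the ranges of Chd6 and Chd7 overlapped across dishes, although Chd6 was above Chd7 within every dish. Among 31 SNF2-type ATPase genes, the 9 CHD genes and 22 others, Chd9 ranked 1 with a mean of 318 TPM and Chd3 ranked 2 with 244 TPM, followed by Hells, which supports DNA methylation, with 149 TPM and Chd4 with 113 TPM. The level of Chd9 carries a limit that is described below, because 1 of its annotated transcripts shares sequence with other genes.

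**Figure D1:**
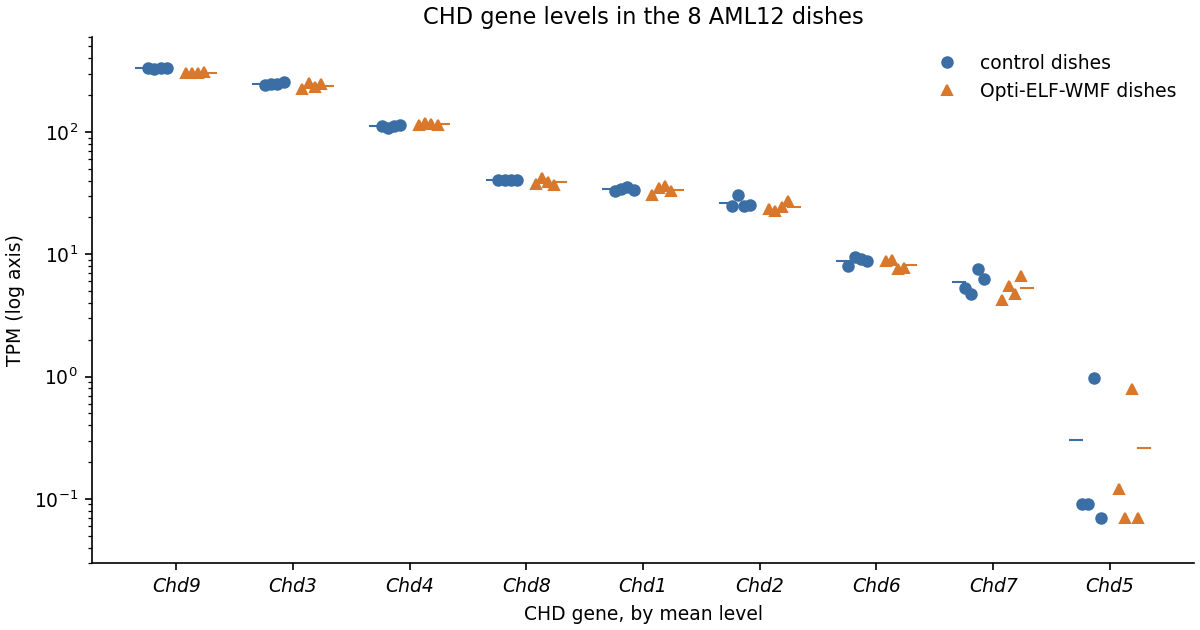
TPM of the 9 CHD genes (log axis) in the 4 control dishes (circles) and the 4 Opti-ELF-WMF dishes (triangles), with a short bar for each condition's mean. The order from Chd9 to Chd5 is the same in all 8 dishes, the 2 conditions separate only for Chd9, and Chd5 is near 0.1 TPM except in replicate 3 of both conditions.

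Chd9 lies on chromosome 8 (GRCm38, chr8:90828352-91054516, plus strand) and is the longest gene of the family, with a span of 226 kb against a median of 20923 bases for tested genes. It was at 333.52, 329.57, 333.39 and 330.16 TPM in the control dishes and at 302.74, 303.62, 300.6 and 309.7 TPM in the exposed dishes. All 4 exposed dishes were below all 4 control dishes, and the highest exposed dish lay 5.99% of the control mean below the lowest control dish. The means were 331.7 ± 2.09 and 304.2 ± 3.90 TPM (SD, n = 4 each), a difference of -8.29%, and the log2 difference of TPM + 1 was -0.12 (SE 0.02). This was the contrast that led to the family being picked, and it carries no independent weight. The difference was small and the dishes were close together: 1036 of the 12122 tested genes had a lower log2 difference, but only 8 had a smaller standard error. Chd9 was 9th of 12122 by p in this fit, which is how it came to be picked. With the mitochondrial genes taken out before scaling the log2 difference was -0.15, and with their nuclear copies taken out too it was -0.17.

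The 250 bases before an annotated RefSeq start (GRCm38.p6) are shown for the 2 matched starts of Chd9, the highest member. For Chd5, the lowest, the first of 2 matched starts is shown. The 2 genes stand at opposite ends of the family, and CpG dinucleotides are in capitals. Windows of 5 of the 9 genes were matched, Chd4, Chd5, Chd6, Chd8 and Chd9. Both Chd9 windows lie inside the Chd9 span given above, which begins at 90828352, so they do not cover every annotated start. The first and second Chd9 starts are both on the plus strand, and so are the Chd5 starts.
Chd9 first start, chr8:90828585-90828834: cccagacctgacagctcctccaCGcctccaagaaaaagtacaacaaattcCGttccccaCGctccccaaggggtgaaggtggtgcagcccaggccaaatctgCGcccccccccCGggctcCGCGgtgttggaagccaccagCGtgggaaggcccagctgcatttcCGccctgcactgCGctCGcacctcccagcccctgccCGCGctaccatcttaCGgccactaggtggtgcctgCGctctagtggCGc
Chd9 second start, chr8:90931999-90932248: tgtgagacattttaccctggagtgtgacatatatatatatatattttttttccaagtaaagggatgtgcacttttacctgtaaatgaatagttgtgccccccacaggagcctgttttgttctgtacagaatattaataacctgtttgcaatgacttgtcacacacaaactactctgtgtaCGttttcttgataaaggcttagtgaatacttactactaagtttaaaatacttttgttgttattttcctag
Chd5 first start, chr4:152338401-152338650: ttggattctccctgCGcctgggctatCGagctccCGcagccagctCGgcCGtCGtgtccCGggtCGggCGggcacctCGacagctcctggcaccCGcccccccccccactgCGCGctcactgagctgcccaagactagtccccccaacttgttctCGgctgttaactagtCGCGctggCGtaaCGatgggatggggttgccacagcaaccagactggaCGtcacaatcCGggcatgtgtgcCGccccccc

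The first Chd9 window held 16 CpG, a count reached by 25.4% of the 32851 windows of this length, and the second held 1 CpG. The printed Chd5 window held 21 CpG, a count reached by 16.3% of windows, and the other held 22, so the gene with the lowest level had the more CpG-rich windows. The letters GGGCGG on either strand, which match the core of an Sp1 site, were in 7 of the 8 CHD windows and in 32.7% of all windows. CCAAT on either strand was in 3 of 8 CHD windows, those of Chd4, Chd6 and Chd8, against 33.8% of all windows. Neither CACGTG (6.02% of all windows) nor TATAAA on either strand (12.4%) was in any of the 8. The 2 windows of Chd5 share 247 of 250 bases and the 2 of Chd4 share 68, so the 8 windows are not independent; GGGCGG was in a window of each of the 5 genes. These matches describe letters only.

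One annotated Chd9 transcript bears on the level just given. The noncoding transcript Chd9-206 is 759 bases long with 3 exons, and its last exon (GRCm38, chr8:90890977-90891521) is 545 bases. The last 337 bases of that exon recur in other noncoding genes, where 332 of 337 bases were identical in Gm42031 and 329 of 337 in Gm42427. In all, 8 other genes of the tables shared at least 200 bases with Chd9 at an identity of 93.8 to 98.5%. Where in Chd9 the match lay was recorded only for Gm42031 and Gm42427. Reads from such shared bases can be split between genes when counted, so Chd9 and these 8 genes are uncertain, and how much of the Chd9 TPM came from Chd9-206 was not tested, since the values are per gene.

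The 8 genes that share sequence with Chd9 had differences on both sides of 0. Gm46620, the highest of the 8, was at 284.77, 290.06, 269.58 and 296.62 TPM in control dishes and at 260.5, 290.03, 272.33 and 282.12 TPM in exposed dishes. Its conditions overlapped. Gm42427 was at 53.22, 53.92, 56.12 and 53.76 TPM in control dishes and at 49.95, 49.88, 52.81 and 52.08 TPM in exposed dishes, which is lower without overlap, with a log2 difference of -0.08 (SE 0.03). Gm42031, the closest in sequence, was at 5.93, 4.67, 4.61 and 4.48 TPM and at 5.95, 5.05, 5.86 and 5.41 TPM, overlapping, with a log2 difference of 0.15 (SE 0.09). Of the 8 genes, 5 had a log2 difference below 0 and 3 above, from -0.33 to 0.16, and Gm42427 was the only one without overlap.

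**Figure D2:**
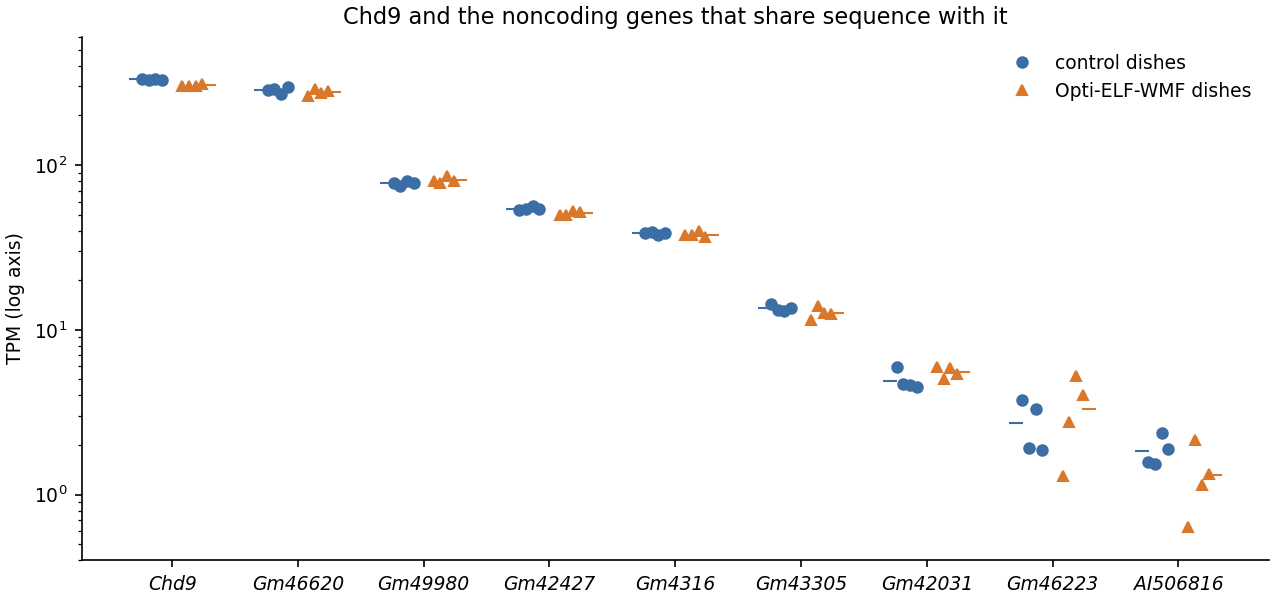
TPM (log axis) of Chd9 and of the 8 noncoding genes that share at least 200 bases with it, in control (circles) and Opti-ELF-WMF dishes (triangles), with a short bar for each mean. Only Chd9 and Gm42427 have all exposed dishes below all control dishes.

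Chd6, Chd7 and Chd8, the closest relatives of Chd9, were far lower in level. Chd8, which binds beta-catenin and CTCF, was at 40.25, 40.25, 40.45 and 40.1 TPM in control dishes and at 37.31, 41.81, 38.99 and 37.03 TPM in exposed dishes. The coefficient of variation was 0.357% in control dishes and 5.66% in exposed dishes, of which 3 lay below and 1 above all controls (log2 difference -0.05, SE 0.04). Chd6 was at 7.96, 9.57, 9.14 and 8.85 TPM and at 8.86, 8.93, 7.53 and 7.65 TPM (log2 difference -0.10, SE 0.07). Chd7, the gene mutated in CHARGE syndrome, was at 5.34, 4.73, 7.53 and 6.3 TPM and at 4.22, 5.46, 4.71 and 6.68 TPM (log2 difference -0.15, SE 0.15). Both genes overlapped between conditions, and the standard error of Chd7 was as large as its difference. Without control replicate 3 the Chd7 difference was -0.05, without Opti-ELF-WMF replicate 1 it was -0.07, and with control replicate 2 or Opti-ELF-WMF replicate 4 left out it was -0.24 or -0.26. Without Opti-ELF-WMF replicate 2, Chd8 was also lower with no overlap, at a log2 difference of -0.09.

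Subfamily II supplied nearly as much TPM as subfamily III. Chd3 was at 242.8, 246.25, 248.29 and 257.84 TPM in control dishes and at 225.25, 251.32, 233.89 and 244.67 TPM in exposed dishes (log2 difference -0.06, SE 0.04). Chd4 was at 112.81, 108.53, 111.01 and 114.28 TPM and at 113.3, 117.81, 116.31 and 113.16 TPM (log2 difference 0.04, SE 0.03). Both overlapped, and Chd4 was the only tested member with a difference above 0. Chd3 made up 69.0% ± 0.511 of the Chd3 and Chd4 total in control dishes and 67.5% ± 0.920 in exposed dishes (SD, n = 4 each), again with overlap. The third NuRD motor, Chd5, which is best known from brain and testis, was at 0.09, 0.09, 0.97 and 0.07 TPM in control dishes and at 0.12, 0.07, 0.79 and 0.07 TPM in exposed dishes. Replicate 3 of each condition stood above the other 3 dishes, and the gene fell under the minimum of 1 TPM in 4 dishes that the fit required.

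Subfamily I held the least TPM. Chd1, which binds trimethylated lysine of histone H3 at active promoters, was at 32.96, 33.87, 35.62 and 33.3 TPM in control dishes and at 30.64, 34.89, 36.21 and 33.07 TPM in exposed dishes (log2 difference -0.01, SE 0.05). Chd2 was at 24.62, 30.4, 24.83 and 25.37 TPM and at 23.43, 22.59, 24.33 and 27.25 TPM (log2 difference -0.10, SE 0.08). Both overlapped between conditions. Control replicate 2 was the highest Chd2 value, and without it the log2 difference was -0.03; without Opti-ELF-WMF replicate 2 it was -0.07, and without Opti-ELF-WMF replicate 4 it was -0.16, with no overlap.

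Chd2 has a neighbour that restrains its output in cis, the long noncoding RNA 1810026B05Rik, also known as Chaserr. This gene was examined because it overlaps an annotated Chd2 transcript on the same strand over 2628 bases, and its values were known when it was chosen. It was at 32.08, 31.53, 30.05 and 28.9 TPM in control dishes and at 28.43, 23.53, 23.42 and 24.77 TPM in exposed dishes. All exposed dishes lay below all control dishes, with a log2 difference of -0.28 (SE 0.06), a lower value than that of all but 1.86% of tested genes. Reads from the shared bases could be given to either gene, so the 2 levels are not independent.

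Across the 8 tested members, 7 had a log2 difference below 0, against 36.3% of the 12122 tested genes, although Chd4 also fell below 0 when mitochondrial genes and their nuclear copies were left out and Chd1 rose above 0 with either control replicate 3 or exposed replicate 1 left out. The median of the members was -0.08, and -0.06 without Chd9, against 0.03 for all tested genes. Chd9 alone had no overlap, 1 member of 8 lower, where 1.86% of all tested genes were lower without overlap and 8.01% higher (9.87% in either direction). Since the exposure contrast chose the family, nothing is read from these counts. Chd3 joined Chd9 under 4 other settings, namely upper-quartile scaling, median of ratios, the length and GC correction and the scale without mitochondrial genes and copies, and Chd8 in the last of these.

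**Figure D3:**
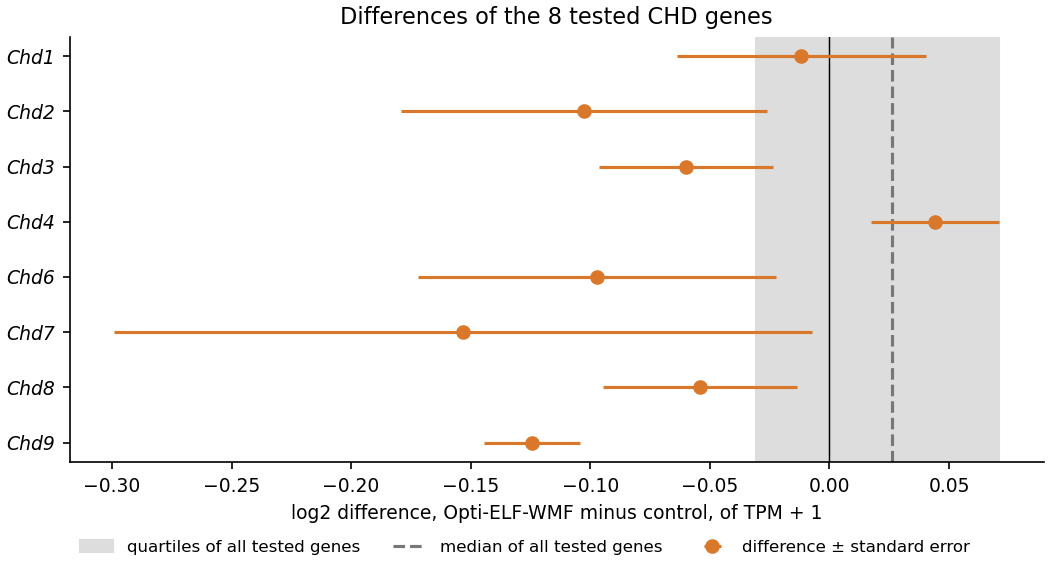
Log2 difference of TPM + 1, Opti-ELF-WMF minus control, of the 8 tested CHD genes with the standard error from limma (n = 4 dishes each). The grey band spans the lower to the upper quartile of the 12122 tested genes and the dashed line their median of 0.03; 7 of the 8 points lie below 0 on the TPM scale (Chd4 joins them without mitochondrial genes and copies, and Chd1 leaves them with either control replicate 3 or exposed replicate 1 left out), and Chd9 has the shortest bar.

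Ratios and shares within a dish show how far Chd9 moved against its relatives, because a scale factor of the dish cancels in them. A sum of TPM keeps that factor. The 9 genes summed to 807.8 ± 7.29 TPM in control dishes and 768.8 ± 18.1 TPM in exposed dishes (SD, n = 4 each), without overlap. Without Chd9, the sums were 476.1 ± 8.06 and 464.6 ± 16.6 TPM, and the conditions overlapped. Chd9 made up 85.75% ± 0.329 of the TPM of Chd6 to Chd9 in control dishes and 85.33% ± 0.651 in exposed dishes, with overlap. Of all CHD TPM it made up 41.1% ± 0.501 and 39.6% ± 0.824, where only exposed replicate 1 (40.59%) lay above the lowest control dish (40.45%). The ratio of Chd9 to Chd8 was 8.24 ± 0.0402 and 7.86 ± 0.483, and that of Chd9 to Chd3 was 1.33 ± 0.0389 and 1.28 ± 0.0561, both with overlap. The ratios of Chd9 to Chd1, Chd2, Chd6 and Chd7 also overlapped. The ratio of Chd9 to Chd4, the member with a difference above 0, was 2.956, 3.037, 3.003 and 2.889 in control dishes and 2.672, 2.577, 2.584 and 2.737 in exposed dishes. This ratio alone, of the 7 to single members, separated the conditions, with means of 2.97 ± 0.064 and 2.64 ± 0.0762. Chd9 was picked for being lower after exposure. The separation of this ratio and that of the sum of the 9 genes draw on the same values and carry no independent weight.

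**Figure D4:**
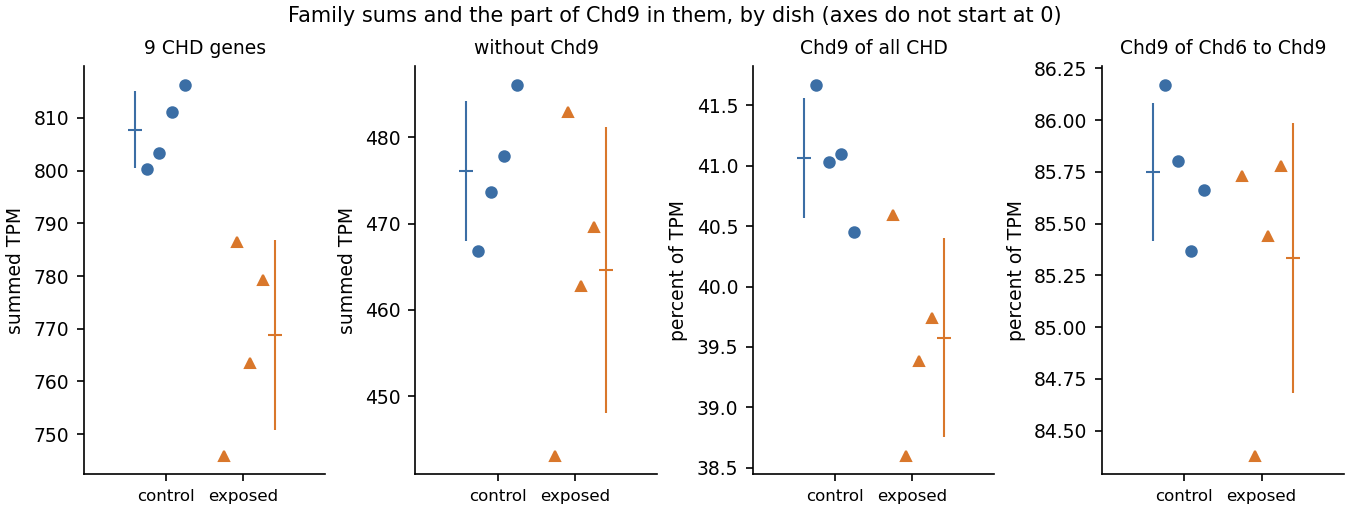
Summed TPM of the 9 CHD genes and of the 8 without Chd9, and the percent of TPM that Chd9 made up of all CHD genes and of Chd6 to Chd9, in each control (circles) and Opti-ELF-WMF dish (triangles), with mean and SD beside them (n = 4 dishes each; axes do not start at 0). Only the sum of all 9 genes separates the conditions, and it contains Chd9, which was picked for being lower after exposure.

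The 5 tested genes whose profile over the 8 dishes, centred on each gene's own mean log2 level, was closest to that of Chd9 were Zgpat, Ccdc66, Rxrb, Lrrc45 and Tm7sf2. Their mean absolute distance was 0.0108 to 0.0193, against a median of 0.095 for all tested genes. Zgpat was at 20.06, 20.32, 20.46 and 20.23 TPM in control dishes and at 18.75, 18.88, 18.43 and 18.92 TPM in exposed dishes, and Rxrb, a retinoid X receptor that pairs with other nuclear receptors, at 28.48, 28.31, 28.9 and 28.39 TPM and at 26.9, 26.66, 26.53 and 26.95 TPM. All 5 were lower without overlap, which follows from choosing them for likeness to Chd9. Within the family Chd3 (rank 399) and Chd8 (rank 471) were the nearest.

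Partners of the CHD proteins and related genes were grouped in 6 lists of 76 genes, of which 71 were tested: 3 lists of partners, 1 of other SNF2-type ATPases, and 1 each of PPARa with its cofactors and of PPARa target genes. None had an adjusted p under 0.05 (limma), and 16 (22.5%) had an unadjusted p under 0.05, against 15.6% of all tested genes. Of the 71, 9 (12.7%) were higher without overlap, against 8.01% of all tested genes, and 1 (1.41%) was lower without overlap, against 1.86%. The count of 9 became 4 with upper-quartile scaling, 5 with median of ratios, 4 without mitochondrial genes and 2 without their copies too, and it was 19 without Opti-ELF-WMF replicate 1 and 15 without replicate 4 of that condition. No overlap is easier to reach with a dish left out, and the share of all tested genes was not computed under these settings. The median log2 difference was 0.04, against 0.03 for all tested genes.

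The partners of the NuRD and ChAHP complexes, the latter built from Chd4, Adnp and HP1 proteins, were all 15 tested, with 14 differences above 0, against 63.7% of all tested genes, and a median of 0.05. Under upper-quartile scaling 9 of 15 were above 0, against 47.0%, and without mitochondrial genes and copies 8 of 15, against 39.4%. On the TPM scale 3 had no overlap (20%, against 8.01% of all tested genes higher), and 2 under each of the other scalings. The share of all tested genes without overlap was not computed under those scalings. The 3 were Hdac2, a histone deacetylase, the histone chaperone Rbbp7 and Gatad2a, which bridges Chd4 to the complex. Rbbp7 was at 235.91, 223.29, 229.39 and 231.73 TPM in control dishes and at 248.57, 255.92, 250.23 and 246.05 TPM in exposed dishes, a log2 difference of 0.12 (SE 0.02). Gatad2a was at 68.97, 69.69, 67.23 and 70.71 TPM and at 75.99, 82.55, 73.93 and 74.02 TPM (0.14, SE 0.04), and Hdac2 had a log2 difference of 0.09 (SE 0.03). The most abundant subunit, the HP1 protein Cbx3, had means of 261.4 and 272.6 TPM with overlap.

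The elongation partners of Chd1 were all 11 tested, with differences from 0.00221 to 0.11, so 11 of 11 above 0 against 63.7% of all tested genes, and a median of 0.07. Without overlap were 4 (36.4%, against 8.01% higher). This count became 1 with upper-quartile scaling, 2 with median of ratios, 1 without mitochondrial genes and 0 without their copies too. The share of all tested genes without overlap was not computed under these settings. Under each of them 8 of 11 stayed above 0, against 47.0%, 49.2%, 49.1% and 39.4% of all tested genes, in that order. Ssrp1, a subunit of the histone chaperone FACT, was at 211.43, 211.48, 202.98 and 212.63 TPM in control dishes and at 217.25, 236.79, 226.08 and 226.99 TPM in exposed dishes (log2 difference 0.11, SE 0.03). Leo1 and Wdr61, of the PAF1 complex, and the elongation factor Supt6 also had no overlap, with log2 differences of 0.08, 0.07 and 0.08. Supt5 overlapped, at means of 113.1 and 117.6 TPM. For Chd8, none of 10 tested partners separated the conditions, against 9.87% of all tested genes in either direction. Differences above 0 numbered 8, against 63.7% of all tested genes, and 6 with upper-quartile scaling, against 47.0%. With a dish left out 0 to 2 partners were higher without overlap. Its most abundant partner was beta-catenin (Ctnnb1), at means of 917.1 and 967.4 TPM with overlap, followed by the H3K4 methylation cofactor Dpy30 at 115.4 and 121.4 TPM.

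Among 21 tested ATPases of other SNF2 families, 14 had differences above 0 and 7 below, with a median of 0.02. Of all tested genes 63.7% were above 0. With upper-quartile scaling 9 of the 21 were above 0, against 47.0% of all tested genes. The 2 without overlap (9.52%, against 9.87% of all tested genes) were Smarca4 and Rad54b. Smarca4, the BRG1 motor of SWI/SNF, was at 99.19, 98.57, 98.32 and 100.51 TPM in control dishes and at 103.03, 111.95, 106.88 and 107.03 TPM in exposed dishes (log2 difference 0.11, SE 0.03). Rad54b, a recombination factor, was at 12.16, 12.75, 13.56 and 11.72 TPM and at 9.23, 10.69, 10.87 and 10.57 TPM (-0.26, SE 0.06), the only gene of the 6 lists lower without overlap. The other motors overlapped, including Hells at means of 144.3 and 154.6 TPM.

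Of the genes of the PPARa axis, with which Chd9 has been linked, 1 of 14 tested (7.14%) had no overlap, a share near the 9.87% of all tested genes. Ppara itself was at a mean of 7.83 TPM. Of the 7 tested genes for PPARa and its cofactors, the coactivator Ncoa6 alone had no overlap, at 25.47, 24.65, 25.43 and 25.87 TPM and at 26.15, 26.8, 27.67 and 26.03 TPM (log2 difference 0.07, SE 0.03), while Ep300 and Med1 overlapped. Of 11 PPARa target genes 7 were tested, 4 with differences above 0 and 3 below, where 63.7% of all tested genes were above 0. None of the 7 separated the conditions on the TPM scale. Lower without overlap were 1 with upper-quartile scaling, 2 with median of ratios and 2 without mitochondrial genes and copies. The share of all tested genes without overlap was not computed under these 3 scalings, so nothing is read from these counts. Under each of these 3 scalings Ncoa6 overlapped too. The 2 highest were the lipid droplet gene Plin2, at means of 301.1 and 319.6 TPM, and the fatty acid oxidation gene Cpt1a, at 118.3 and 121.6 TPM.

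**Figure D5:**
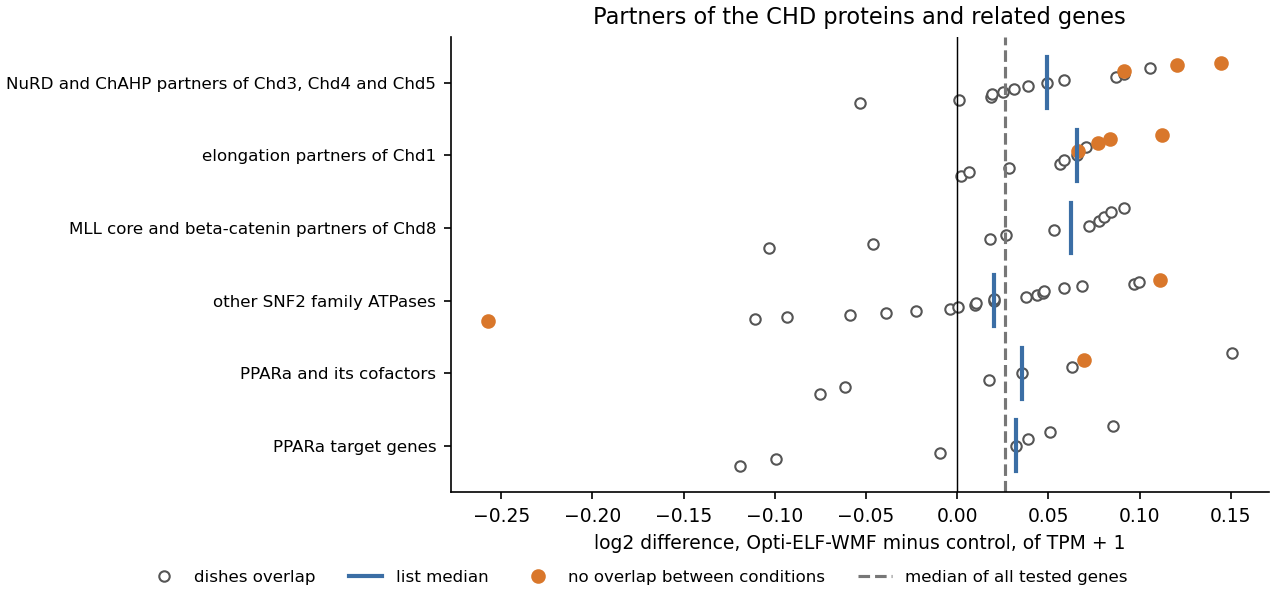
Log2 difference of TPM + 1, Opti-ELF-WMF minus control (n = 4 dishes each), of the 71 tested partners and related genes in 6 lists, 1 circle a gene. Filled circles are the 10 genes whose dishes do not overlap between conditions, 9 higher (2 to 5 under the other scalings) and 1 lower (Rad54b); blue bars are list medians and the dashed line is the median of all tested genes, 0.03.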

How the data were processed

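RNA-seq was made with the TruSeq Stranded mRNA kit and paired-end reads. The processing notes of the submitters name Trimmomatic 0.39, STAR 2.7.4a, RSEM 1.3.3 and mm10, and the annotation was not given in the sources used here. The authors deposited 1 table of gene TPM per dish, 8 in all, with 55401 genes and sums of 1000000 to 1000001. Depth, and hence counting error, is unknown, and no count test was run. The members and gene lists were chosen with earlier results of these data known.

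Genes at or above 1 TPM in 4 or more dishes (12122) were compared as log2(TPM + 1) with limma 3.58.1 (R 4.3.3; empirical Bayes with trend, Benjamini-Hochberg adjustment over all of them, threshold 0.05). Differences on this scale understate those of low genes. All groups entered as labelled, with 4 dishes each, and no 2 dishes shared over 3.79% of values. On simulated data of these 12122 genes, 200 genes were changed by 1 on the log2 scale. Of these 96.5% were called, with 13 false calls. Changes as small as those reported here were not simulated, so this share does not apply to them. Neighbouring levels were compared by exact sign flips. Shared sequence was sought with BLAST 2.17.0 in GENCODE M21 transcripts (at least 200 bases at 90% identity), which matched 55141 genes. Named were all 9 members, the listed genes without overlap and the 2 highest of each list, and the 5 profiles nearest to Chd9. Genes with shared sequence, and the dishes with high Chd5, were added after values were seen.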

Additional observations from a re-analysis of the deposited data

Results flagged for a closer look

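In the groups of 4 dishes, a dish was marked where its gap to the nearest other dish, over the range of its condition, passed the Dixon value for 4 samples. Of 88 groups examined for the named genes and sums, 5 were marked, where chance alone marks about 1 in 20 (4.4). Chd5 stood out in both conditions, at 0.97 TPM in control replicate 3 against 0.07 to 0.09 TPM in the other dishes and in exposed replicate 3, where 0.79 TPM compared with 0.07 to 0.12 TPM in the other dishes. Chd2 was at 30.4 TPM in control replicate 2 against 24.62 to 25.37 TPM in the others. Ssrp1 was at 202.98 TPM in control replicate 3 against 211.43 to 212.63 TPM, and Gm42031 at 5.93 TPM in control replicate 1 against 4.48 to 4.67 TPM.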

How the results depend on the processing

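Alternatives changed the size of the Chd9 difference but not its sign. Its log2 difference of -0.12 became -0.16 with upper-quartile scaling, -0.15 with median of ratios and without mitochondrial genes, -0.17 without mitochondrial genes and their nuclear copies (an alternative chosen after seeing the data), and -0.14 with the length and GC correction, with or without the replicate block. Leaving out 1 dish gave -0.13 to -0.12. The share of Chd9 among Chd6 to Chd9 differed by -0.42 percentage points, and by -0.57 to -0.10 with a dish left out. The differences of Chd2, Chd3, Chd6, Chd7 and Chd8 stayed below 0 under each alternative run; Chd4, at 0.04, became -0.00326 without mitochondrial genes and copies, and the cause was not tested.

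Genes with an adjusted p under 0.05 (limma) numbered 0, and 1 with the filter of 1 TPM in all dishes, upper-quartile scaling, median of ratios, without mitochondrial genes and copies, or without a trend; leaving out a dish gave 0 to 2 (2 without control replicate 2, 1 without control replicate 3). None was a CHD gene in any of these fits. The share of unadjusted calls that were higher, 76.6%, was 42.3% with upper-quartile scaling, 47.1% with median of ratios, 50.7% without mitochondrial genes and 29.9% without their copies too; it was 67.6% with no filter and 62.8% with the length and GC correction.

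CHD genes lower without overlap numbered 1, and 2 with upper-quartile scaling, median of ratios or the length and GC correction, 3 without mitochondrial genes and copies, and 1 to 2 with a dish left out (Chd8 without Opti-ELF-WMF replicate 2, Chd2 without Opti-ELF-WMF replicate 4); higher, 0 to 1 (Chd4 without control replicate 4). Genes of the 6 lists lower without overlap numbered 1, then 2, 3, 4 and 2 with upper quartile, median of ratios, without mitochondrial genes and copies, and the correction, and 1 to 3 with a dish left out (3 without control replicate 1, 2 without control replicate 4, Opti-ELF-WMF replicate 2 or 4). Higher, they numbered 9, then 4, 5, 4 without mitochondrial genes and 2 without copies too, and 10 to 19 with a dish left out (19 without Opti-ELF-WMF replicate 1, 15 without replicate 4). No overlap is easier to reach with a dish left out, and the share of all tested genes was not computed under these settings.

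Dish numbers did not pair the dishes (correlation of deviations -0.0348, -0.0419, 0.000369 and 0.0258). With the replicate block the Chd9 difference was -0.12 and 0 genes had an adjusted p under 0.05 (limma). In every same-numbered pair 3 genes of the 6 lists were lower and 21 higher. This rule asks less than no overlap, and the share of all tested genes that meet it was not computed. The block changed no other call. The level order passed for 8 pairs, and for 0 in the control dishes alone, where the smallest exact p is 0.125 and all 4 dishes keep the order.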

Other observations

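The high Chd5 value in replicate 3 of both conditions was shared with few genes. Counting genes with at least 0.5 TPM in both dishes and at least 5 times the highest of the other 6 dishes, 3 genes met this for the 2 replicate 3 dishes, Chd5, the actin regulator Eps8 and the pseudogene Rps27-ps1, and the 16 pairs of 1 control and 1 exposed dish had 0 to 6 such genes each. The labels give no link between same-numbered dishes, and the count was made after the Chd5 values were seen.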
